A study of Mus musculus with 48 samples.

Results

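The genes that mark border-associated macrophages, the macrophages of the brain's meninges, choroid plexus and perivascular spaces, were followed through 48 arrays of brain cells from mouse pups. They were picked by name, as Mrc1, Clec10a, Cd163, Lyve1, Pf4, F13a1, Cbr2 and Ms4a7, and any probe carrying one of these names was taken whatever its signal. This gave 8 genes with 10 probes among the 34797 gene names and 55681 probes on the array. Border-associated macrophages share most of their surface antigens with microglia, the macrophages of the brain tissue itself, and CD11B is present on both. They take up and clear material at the vessels and membranes around the brain, and several of these genes encode receptors for that uptake. Platelets and megakaryocytes also make Pf4, and lymphatic endothelium also makes Lyve1.

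Male pups of the Swiss strain had received PBS or interleukin 1B (IL1B, 10 ng/g) into the peritoneum from P1 to P5, a treatment used to model inflammation around preterm birth. By the labels, collection at P5 came 2 hours after the last injection, while the paper names a longer time. At P5 or P10 the brains were dissociated, O4+ cells (the oligodendrocyte lineage) were pulled out first with magnetic beads, and CD11B+ cells were then taken from what was left. The 8 groups were O4+ or CD11B+ cells, at P5 or P10, after PBS or IL1B, with 6 arrays in each. By the paper each sample pooled several brains, so an array stands for a pool and not for 1 pup. Values below are quantile-normalised signal intensities in arbitrary units, written as the lowest, the median and the highest of 6 arrays, and levels were compared between groups for the same probe only. From 52.9% to 65.4% of probes on an array were well above background by the scanner software's own flag, and any 2 arrays of a group correlated at 0.959 or more. With 6 arrays a group, small differences are measured with little precision.

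Most markers of the labelled cells followed the labels, but the brightest probe for CD11B itself did not. In PBS cells 10 of 10 oligodendrocyte lineage genes were higher in O4+ than in CD11B+ cells at both ages, with a median difference of 4.63 (log2) at P5 and 4.04 at P10. Of 12 genes expressed by all macrophages, 11 were lower in O4+ cells at both ages, with median differences of -3.23 and -4.62. The exception was that probe, of the gene Itgam, at a median of 59810 in O4+ and 14790 in CD11B+ PBS cells at P5. By RT-qPCR the paper reports very little Itgam mRNA in O4+ cells of that age. The colony-stimulating factor receptor gene Csf1r, one of the 12 macrophage genes, still had a median of 80600 in O4+ and 254500 in CD11B+ PBS cells at P5. The source of the O4+ signal was not tested. Markers of astrocytes and neurons were no higher in CD11B+ cells, where 1 of 6 astrocyte genes and 3 of 4 neuronal genes were lower than in O4+ cells at P5. The calls behind these counts, and all calls below, needed an adjusted p under 0.05 from limma over all probes and group medians more than 1.5-fold apart.

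All 8 genes were detected in the CD11B+ samples, well above background on all 24 arrays. Mrc1 encodes the mannose receptor CD206, an endocytic lectin, and its probe lies at chr2:14253273-14253332 (mm9, plus strand). Clec10a, a lectin that binds galactose and N-acetylgalactosamine, was read at chr11:69984254-69984313 (plus strand). The probe for Cd163, the scavenger receptor for haemoglobin bound to haptoglobin, lies at chr6:124270436-124270495 (plus strand), and that for Lyve1, a hyaluronan receptor, at chr7:117994171-117994230 (minus strand). Pf4 encodes the chemokine platelet factor 4 (CXCL4), at chr5:91202275-91202334 (plus strand). F13a1 encodes the catalytic A subunit of coagulation factor XIII, at chr13:36959214-36959273 (minus strand), with a dimmer probe at chr13:37063829-37063888. Cbr2, a carbonyl reductase, has probes at chr11:120590825-120590884 and, dimmer, chr11:120592059-120592118 (minus strand), and Ms4a7, a membrane protein of the MS4A family, has one at chr19:11395903-11395962 (minus strand). The brighter probe stands for F13a1 and Cbr2, and the other is given where it differs.

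**Figure D1:**
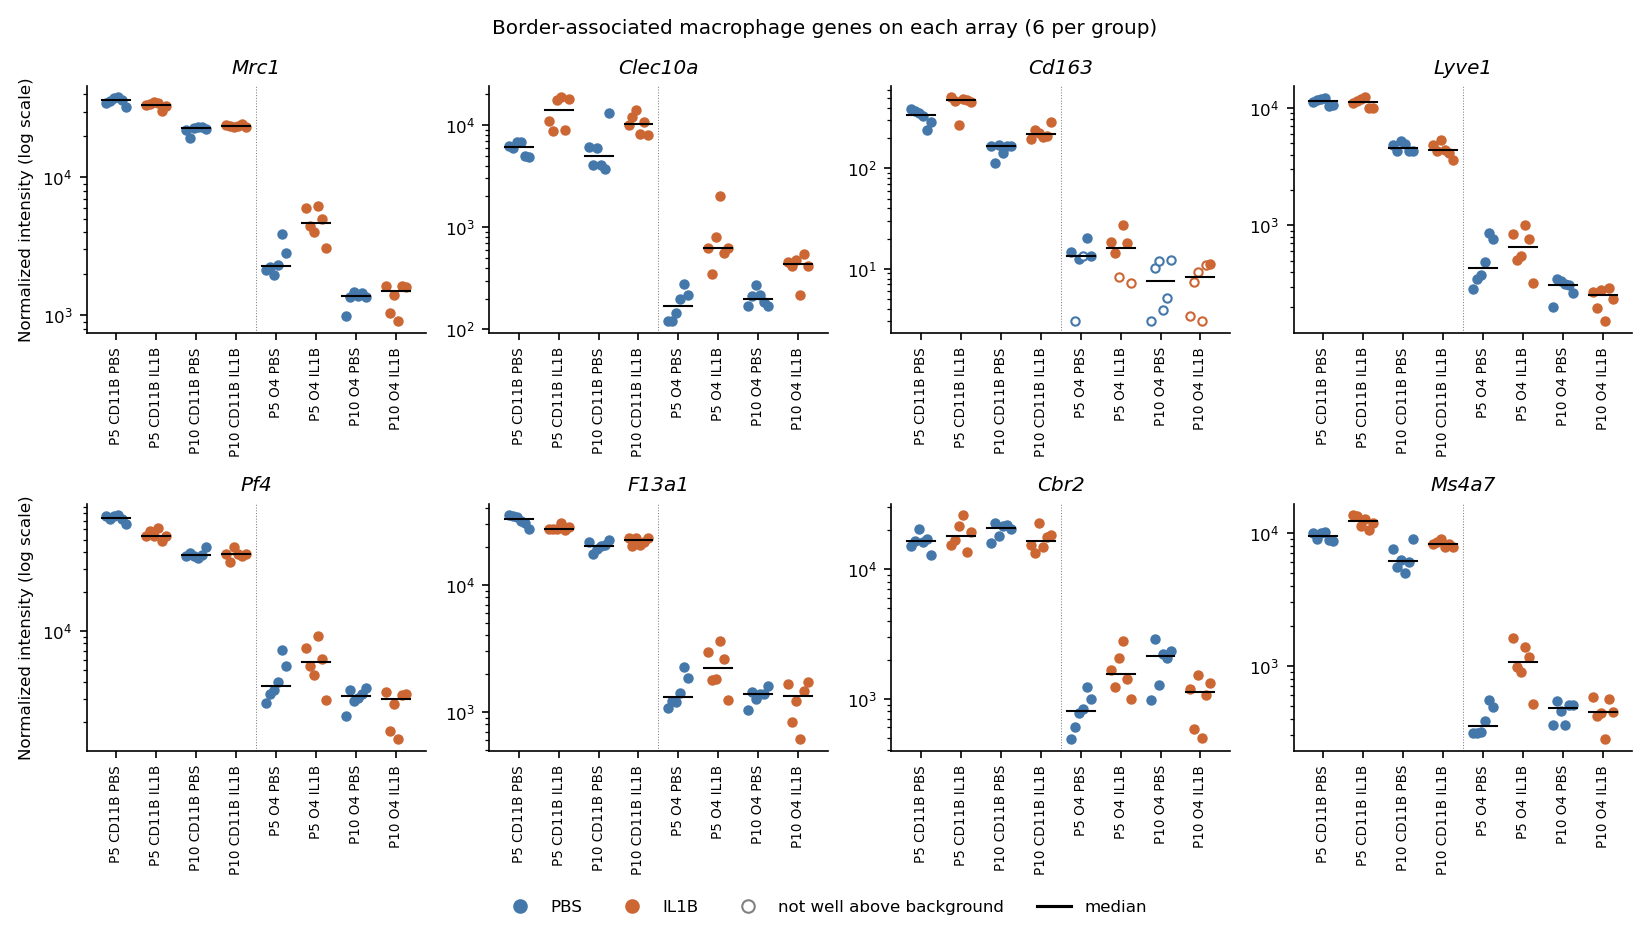
Normalised signal of the 8 genes on each array (log axis), in 8 groups of 6 arrays, with open points for arrays not well above background and a line at the median. Each gene's 24 CD11B+ arrays lie above its 24 O4+ arrays.

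For every one of the 8 genes, the lowest of the 24 CD11B+ arrays was above the highest of the 24 O4+ arrays, as the plot of signals by group shows. Within CD11B+ cells the order of the 4 groups differed between genes. Mrc1, Lyve1, Pf4 and F13a1 were highest in P5 PBS cells, then in P5 IL1B cells, and their P5 arrays lay above all their P10 arrays. Only for Pf4 did the 2 P5 groups separate, and for none of the 4 did the 2 P10 groups. Cd163 and Ms4a7 ran in the order P5 IL1B, P5 PBS, P10 IL1B, P10 PBS. The P5 PBS and P10 IL1B arrays overlapped for both, while the 2 P5 groups separated for Ms4a7 and the 2 P10 groups for Cd163. Clec10a alone put both IL1B groups above both PBS groups by median, and Cbr2 was highest in P10 PBS cells, with all neighbours in its order overlapping.

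In O4+ cells the P5 IL1B group had the highest mean log2 signal for 7 of 8 genes, the exception being Cbr2, which was again highest in P10 PBS cells. All neighbours in these O4+ orders overlapped, apart from Mrc1, whose P5 PBS arrays lay above its P10 IL1B arrays. Cd163 was at the edge of detection there. It was well above background on 4 of 6 arrays in each P5 O4+ group, on 0 of 6 in P10 PBS and on 1 of 6 in P10 IL1B cells, so no fold is given for it between O4+ groups, although it enters the counts and medians over the 8 genes.

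How far the 8 genes belonged to the CD11B+ samples was measured between the PBS groups. Mrc1 had signals of 1972, 2280 and 3912 in O4+ and 32590, 36150 and 38170 in CD11B+ cells at P5, and 982, 1368 and 1476 against 19270, 22760 and 23370 at P10. Clec10a had 119.4, 169.8 and 277.2 in O4+ and 4829, 6131 and 6859 in CD11B+ cells at P5. Cbr2 had 977.8, 2134 and 2906 in O4+ and 15790, 20780 and 22480 in CD11B+ cells at P10. None of these pairs of groups overlapped. At P5 the CD11B+ median exceeded the O4+ median by between 15.8-fold (Mrc1) and 36.1-fold (Clec10a) among the 7 genes detected in both, and at P10 by between 9.74-fold (Cbr2) and 25.1-fold (Clec10a). Cd163 was also lower in O4+ cells, but no size is given for the difference, since its O4+ signal lay near background and the estimate depended on the background correction.

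At both ages 8 of 8 genes were called lower in O4+ cells, against 21.8% of all probes called lower at P5 and 20.2% at P10. None of the 8 overlapped between the cell types, and no share of probes without overlap was counted. For none was a call of higher made, with 19.8% and 22.2% of probes called higher at the 2 ages, and the methods' equal-variance test also called 0 higher (all 8 had an unadjusted p under 0.05, in the direction of lower). The median difference over the 8 genes was -4.53 (log2) at P5 and -3.96 at P10, beside -0.05 and 0.00 over all probes. A further list of 21 measured genes of border-associated macrophages behaved alike, with 19 lower and 2 higher in O4+ cells at each age and medians of -3.92 and -4.19. This list, like the members, was chosen with earlier results of these data known. The 2 higher genes were Mgl2, at medians of 21650 in O4+ and 14410 in CD11B+ cells at P5, and Ednrb, an endothelin receptor. Homeostatic microglia genes were lower in 12 of 14 cases at P5 and 13 of 14 at P10, with medians of -3.02 and -4.72.

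Between P5 and P10, 6 of the 8 genes fell in CD11B+ cells from PBS pups, the comparison of ages without IL1B. Lyve1 went from 10330, 11470 and 12230 at P5 to 4271, 4566 and 5204 at P10, a 2.51-fold lower median (log2 difference -1.29, SE 0.07, adjusted p = 2.13e-06). Cd163 went from 241, 342.4 and 386.8 to 113.3, 165.2 and 171.9 (-1.09, SE 0.14, adjusted p = 0.00019). Pf4 went from 65760, 73890 and 77300 to 36110, 37830 and 44140 (-0.92, SE 0.06, adjusted p = 4.64e-06). For these 3 genes no P10 array reached the lowest P5 array. Mrc1 fell to 19270, 22760 and 23370 from the P5 values above, a log2 difference of -0.69 (SE 0.06, adjusted p = 1.86e-05). F13a1 went from 27740, 33130 and 35440 to 17620, 20300 and 22700 (-0.68, SE 0.08, adjusted p = 0.000115), and its dimmer probe fell by 0.90. Their P5 and P10 arrays were also apart. Ms4a7 was at 8681, 9480 and 10070 at P5 and 5017, 6125 and 8923 at P10 (-0.55, SE 0.13, adjusted p = 0.00951), and here 1 P10 array lay above the lowest P5 array.

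The other 2 genes did not pass. Clec10a was at 4829, 6131 and 6859 at P5 and 3689, 5013 and 13020 at P10, a log2 difference of -0.09 with an adjusted p of 0.877. Leaving out single arrays moved that difference between -0.34 and 0.02, with an adjusted p of 0.188 or more. Cbr2 was at 12890, 16330 and 20330 at P5 and 15790, 20780 and 22480 at P10, with a difference of 0.29 and an adjusted p of 0.113. The 6 genes called lower compare with 3.47% of all probes called lower. Of the 6 genes, 5 were without overlap, for which no share of probes was counted. In the other direction 0 were called by limma and 0 by the methods' equal-variance test, against 4.49% of probes called higher, while 7 of the 8 had an unadjusted p under 0.05, Cbr2 being the one of these above its P5 level. The median difference of the 8 was -0.69, and that of all probes 0.00. The plot of differences with their standard errors sets this comparison beside the others. In bulk samples, fewer cells of a kind and less RNA per cell cannot be told apart.

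Promoters of the genes that fell with age are shown, all 7 windows that RefSeq (GRCm38.p6) gave for them. The table held promoters for 6 of the 8 genes with 8 start sites, Cbr2 being the sixth, and none for Lyve1 or Clec10a. Each sequence below is the 250 bases before a start site, on the gene's strand. Capitals mark AGGAAGT or its reverse complement, a motif of PU.1 and other ETS factors, PU.1 being the transcription factor that macrophages need for their development. The windows are chr2:14229164-14229413 (plus strand) for Mrc1, chr6:124304401-124304650 (plus strand) for Cd163 and chr5:90772185-90772434 (plus strand) for Pf4. Those of F13a1 are chr13:37050245-37050494 and chr13:37049214-37049463 (minus strand), and those of Ms4a7 chr19:11336147-11336396 and chr19:11334696-11334945 (minus strand).
Mrc1: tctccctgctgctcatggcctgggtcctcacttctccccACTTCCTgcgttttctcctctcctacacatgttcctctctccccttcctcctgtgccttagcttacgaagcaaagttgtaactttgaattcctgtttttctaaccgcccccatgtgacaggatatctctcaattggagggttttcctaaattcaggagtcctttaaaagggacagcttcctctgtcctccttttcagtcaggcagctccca
Cd163: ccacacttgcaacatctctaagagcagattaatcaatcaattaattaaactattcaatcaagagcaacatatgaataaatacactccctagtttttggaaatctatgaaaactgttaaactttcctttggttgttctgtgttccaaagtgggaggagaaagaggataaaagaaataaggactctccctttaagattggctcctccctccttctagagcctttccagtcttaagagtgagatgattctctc
Pf4: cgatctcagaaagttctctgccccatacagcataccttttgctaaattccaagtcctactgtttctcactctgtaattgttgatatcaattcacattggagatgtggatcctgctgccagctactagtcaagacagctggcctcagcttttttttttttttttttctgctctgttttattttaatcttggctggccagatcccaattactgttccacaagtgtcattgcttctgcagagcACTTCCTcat
F13a1, first start: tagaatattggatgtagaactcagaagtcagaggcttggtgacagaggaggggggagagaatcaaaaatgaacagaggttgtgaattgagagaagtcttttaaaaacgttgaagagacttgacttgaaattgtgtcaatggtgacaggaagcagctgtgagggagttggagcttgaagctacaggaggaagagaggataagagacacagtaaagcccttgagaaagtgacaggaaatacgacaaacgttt
F13a1, second start: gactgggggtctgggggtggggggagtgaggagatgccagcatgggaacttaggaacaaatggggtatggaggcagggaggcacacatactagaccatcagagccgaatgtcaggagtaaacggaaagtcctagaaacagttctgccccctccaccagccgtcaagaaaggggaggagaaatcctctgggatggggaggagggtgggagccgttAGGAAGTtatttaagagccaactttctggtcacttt
Ms4a7, first start: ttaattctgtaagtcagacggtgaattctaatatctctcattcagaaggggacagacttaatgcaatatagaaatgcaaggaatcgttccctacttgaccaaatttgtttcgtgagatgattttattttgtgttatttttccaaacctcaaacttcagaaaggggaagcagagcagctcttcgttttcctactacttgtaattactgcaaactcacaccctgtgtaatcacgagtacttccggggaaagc
Ms4a7, second start: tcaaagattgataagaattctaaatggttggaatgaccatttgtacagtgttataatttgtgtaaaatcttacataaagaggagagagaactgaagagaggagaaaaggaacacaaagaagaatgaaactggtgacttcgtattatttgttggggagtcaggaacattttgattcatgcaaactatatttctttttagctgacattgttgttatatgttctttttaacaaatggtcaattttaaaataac
The ETS motif stood on the opposite strand of Mrc1, 211 bases before the start, and of Pf4, 10 bases before it. In F13a1 it stood on the gene's strand, 36 bases before the second start, and Cd163, the first start of F13a1 and both starts of Ms4a7 had none. Searched on both strands, 3 of the 8 member promoters held it, as did 2525 of 32851 promoters (7.69%). TGANTCA, the AP-1 motif, was in 1 of the 8, the second start of Ms4a7 (81 bases before it), and in 6.75% of all promoters. TGCTGAC, a MAF motif that can overlap TGANTCA, was in 0 of the 8 and 3.81% of all, and TTCNNNGAA, a STAT motif, in 0 of the 8 and 7.02%. A match describes letters in a window and is not a binding site.

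Of the 21 further genes of border-associated macrophages, 9 were lower at P10, 0 higher and 12 not called, with a median of -0.46. Colec12, a scavenger receptor, was at medians of 976.9 at P5 and 321.6 at P10 (-1.85), Cd36, a fatty acid and lipoprotein receptor, at 1293 and 580.1 (-1.21), and Ccl24, an eosinophil chemokine, at 17900 and 8008 (-1.20). Dab2, an endocytic adaptor, was at 16780 and 9004 (-0.83) and Folr2, a folate receptor, at 6469 and 3869 (-0.65). Stab1, a scavenger receptor of the same macrophages, was not called, at 38760 and 32950. Mgl2, the close paralog of Clec10a, was at 14410 and 14240. The probe taken for Mgl2 read higher in O4+ than in CD11B+ PBS cells, unlike that for Clec10a.

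Other cell markers were read from the same arrays, and their part in the fall of the 6 genes was not tested. Homeostatic microglia genes had 4 of 14 higher at P10 and 0 lower (median 0.57), led by Tmem119, with medians of 29500 and 78550. Of the genes of all macrophages 1 of 12 was higher, with a median of 0.08. MHC class II genes had 4 of 7 higher (median 1.05), neutrophil and monocyte genes 1 of 15 higher (0.23), and dendritic cell genes 1 of 7 higher and 1 lower (-0.31). Platelet and megakaryocyte genes bear on Pf4: 2 of 8 were higher and 1 lower (0.23), the lower one being the platelet chemokine Ppbp, with medians of 156.3 at P5 and 39.31 at P10. Of these 8 genes, 4 at P5 and 3 at P10 were well above background on no array. Vascular endothelium fell in 6 of 8 genes (-0.69) and lymphatic endothelium, which bears on Lyve1, in 1 of 3 (-0.29). Meningeal fibroblasts and mural cells, erythroid cells and haem handling had 0 of 8, 0 of 6 and 0 of 11 genes called, with medians of -0.82, -0.23 and -0.16. Oligodendrocyte lineage genes were higher in 6 of 10 cases, astrocyte genes lower in 1 of 6, and neuronal genes higher in 1 and lower in 2 of 4.

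The P5 and P10 arrays shared no slide and no scan day, so age and slide cannot be fully told apart. Age also went with the time since the last PBS injection, which was given at P5. With slide as a random block Lyve1, Cd163, Pf4, Mrc1 and F13a1 kept their calls, at differences of -1.28, -1.02, -0.89, -0.68 and -0.64. Ms4a7 lost its call with that block (-0.51, adjusted p = 0.0735) and with one for scan day (-0.53, adjusted p = 0.199). It also fell under the 1.5-fold threshold when P5 PBS CD11B+ replicate 1, 3 or 4 was left out, each time with a difference of -0.53, and when the ratio was taken from mean log2 values.

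**Figure D2:**
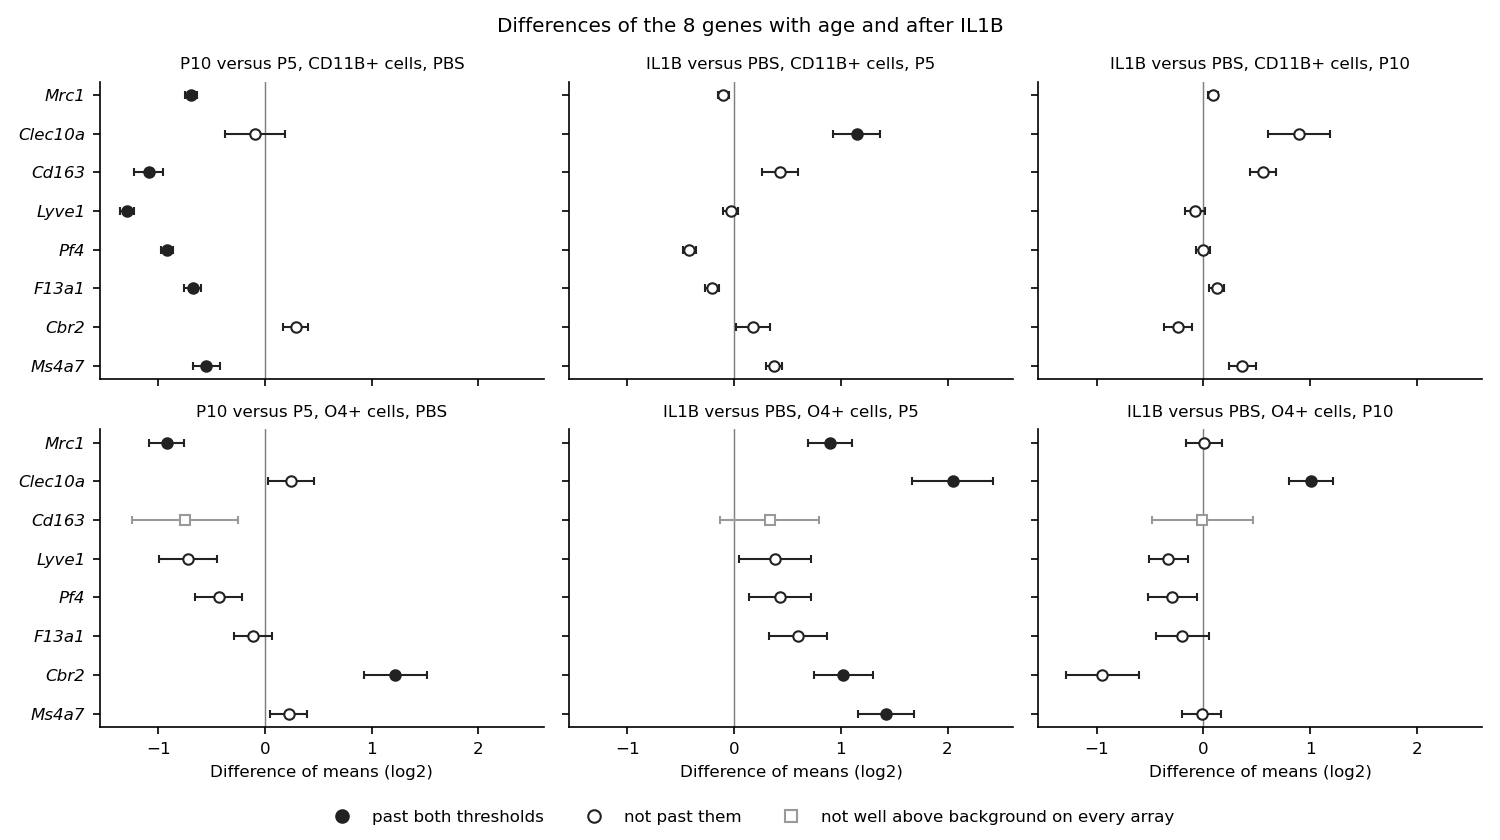
Log2 differences of the 8 genes with their standard errors between P10 and P5 PBS cells and between IL1B and PBS cells at each age, in CD11B+ and O4+ samples of 6 arrays a group, with filled points past both thresholds and grey squares for Cd163 where it was dim. In CD11B+ cells 6 filled points lie below 0 with age, and the 1 filled point after IL1B is Clec10a at P5.

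In O4+ cells from PBS pups, the 2 ages differed for 2 of the 8 genes, in opposite directions. Cbr2 rose from 486.3, 811.1 and 1227 at P5 to 977.8, 2134 and 2906 at P10 (log2 difference 1.22, SE 0.29, adjusted p = 0.00651), with overlapping arrays, and its dimmer probe rose by 1.03. Mrc1 fell from 1972, 2280 and 3912 to 982, 1368 and 1476 (-0.92, SE 0.16, adjusted p = 0.00091), and its arrays did not overlap. Lyve1 was at 288.1, 431.4 and 861.6 at P5 and 200.9, 312.3 and 352 at P10, with an adjusted p of 0.0595. The 1 gene called higher compares with 8.09% of probes and the 1 called lower with 9.14%. Macrophage markers moved on these arrays, with 11 of 12 genes of all macrophages lower and 1 higher (median -1.38) and 10 of 14 microglia genes lower (-0.98). The further genes of border-associated macrophages were lower in 7 and higher in 1 of 21 cases (-0.44), meningeal fibroblast and mural cell genes lower in 6 of 8 (-1.12) and vascular endothelium genes lower in 5 of 8 (-0.88). The part of these lists was not tested. The median of the 8 genes was -0.27.

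These O4+ calls were sensitive to the fit. Cbr2 was at 1.26 with an adjusted p of 0.0657 when slide or scan day was a block. Mrc1 kept its adjusted p but not its 1.5-fold ratio under scaling to the 75th percentile and in the deposited matrix values, with -0.74 in both. Leaving out P5 PBS O4+ replicate 1 brought in a call for Lyve1 (-0.87, adjusted p = 0.023), and leaving out replicate 2 brought in calls for Lyve1 (-0.81, adjusted p = 0.0498) and the dim Cd163 (adjusted p = 0.048).

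Among the 8 genes, Clec10a had the largest difference between IL1B and PBS in CD11B+ cells at P5. Its signal was 4829, 6131 and 6859 after PBS and 8686, 14170 and 18710 after IL1B, a ratio of medians of 2.31 (log2 difference 1.15, SE 0.22, adjusted p = 0.00293). Each IL1B array lay above each PBS array, and the 6 IL1B arrays fell into 3 between 8686 and 10950 and 3 between 17400 and 18710. It was the 1 gene called higher, where 3.98% of probes were. None was called lower by limma or by the methods' equal-variance test, where 5.01% of probes were, although 5 of the 8 had an unadjusted p under 0.05 in either direction. The median difference of the 8 was 0.07, beside -0.02 for all probes.

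Smaller shifts passed the adjusted p but not the 1.5-fold threshold for 3 further genes. Pf4 was at 65760, 73890 and 77300 after PBS and 48620, 53750 and 61410 after IL1B (-0.42, SE 0.06, adjusted p = 0.00067), without overlap. Ms4a7 was at 8681, 9480 and 10070 after PBS and 10540, 12280 and 13600 after IL1B (0.37, SE 0.08, adjusted p = 0.00425), also without overlap. F13a1 was at 27740, 33130 and 35440 after PBS and 27120, 27570 and 30700 after IL1B (-0.21, adjusted p = 0.0464), whereas its dimmer probe gave 0.31 (adjusted p = 0.127), so its 2 probes differed in sign. The remaining members did not pass either threshold. Mrc1 was at 30520, 33730 and 35120 after IL1B (-0.10), Lyve1 at 9941, 11280 and 12350 (-0.03), Cd163 at 269.2, 473.2 and 509.2 (0.43, adjusted p = 0.105) and Cbr2 at 13570, 18040 and 26040 (0.18). For Cd163 leaving out single arrays gave 0.34 to 0.56, with an adjusted p from 0.00483 to 0.191 and no call.

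The slides held these groups unevenly. Of the P5 CD11B+ arrays, 4 IL1B and 1 PBS array shared a slide, and the remaining 7 lay on slides with 1 of the 2 groups. The shared PBS array, replicate 6, was the lowest of its group for Mrc1, Clec10a, Pf4, F13a1, Cbr2 and Ms4a7. Within the shared slide Clec10a differed by 1.40, Cd163 by 0.70, Cbr2 by 0.51, Ms4a7 by 0.47 and Pf4 by -0.25, each with the PBS array outside the 4 IL1B arrays, while Mrc1, Lyve1 and F13a1 differed by 0.02 to 0.03. With slide as a fixed block the estimates were the same, and the adjusted p was 0.131 for Clec10a, 0.112 for Ms4a7 and 0.317 for Pf4, so that no member was called. With scan day as the block Clec10a kept its call (1.06, adjusted p = 0.0237). The plot of Clec10a by slide shows this layout.

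**Figure D3:**
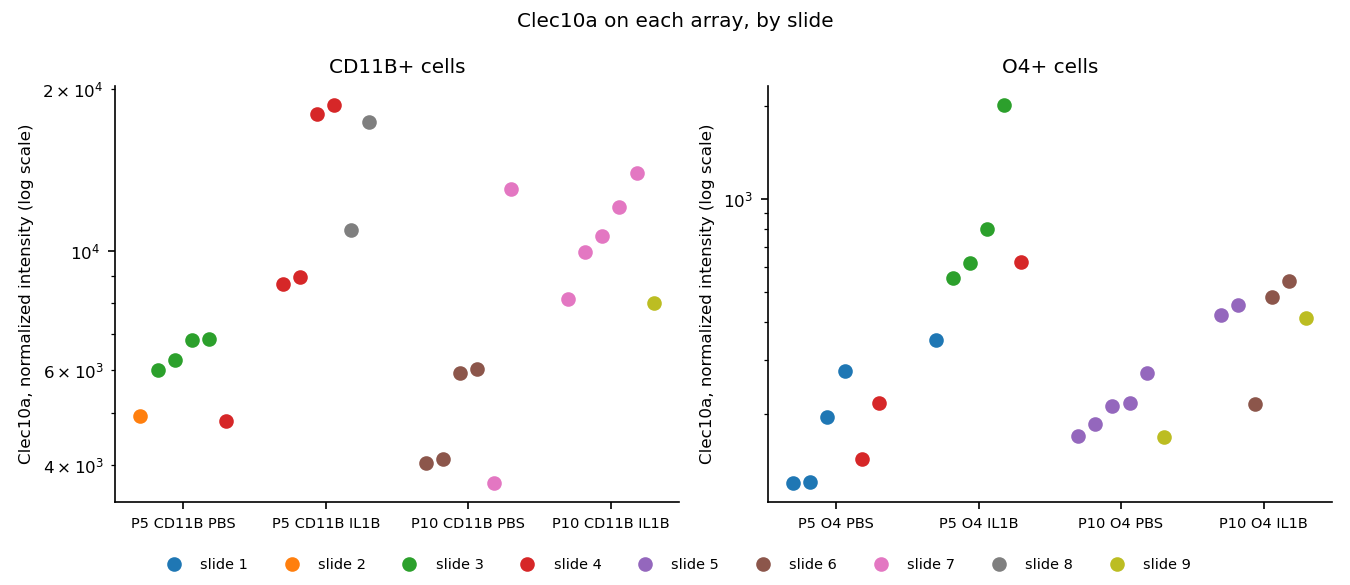
Normalised Clec10a signal on each array (log axis) by group, with points coloured by slide, in CD11B+ and O4+ cells. At P5 the 6 IL1B CD11B+ arrays lie above the 6 PBS arrays, and at P10 1 PBS array, at 13020, lies among the IL1B arrays.

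Clec10a at P10 had the same sign in CD11B+ cells, 5 days after the last injection, but did not pass. It was at 3689, 5013 and 13020 after PBS and 8015, 10300 and 13950 after IL1B, a ratio of 2.06 (log2 difference 0.89, SE 0.29, adjusted p = 0.0902). The overlap came from 1 array, PBS replicate 6 at 13020, while the other 5 PBS arrays reached at most 6024. Without that array the difference was 1.14 with an adjusted p of 0.00477. Clec10a was also called with normexp background correction (adjusted p = 0.0478), among only probes well above background (adjusted p = 0.0395) and with all 8 groups in 1 fit (adjusted p = 0.0453). The same array had the highest mean log2 signal of its group for several lists: 11.69 for neutrophil and monocyte genes (9.62 to 9.95 on the other 5), 11.09 for MHC class II (9.68 to 10.22), 10.71 for erythroid genes (8.35 to 9.30) and 13.11 for the 8 members (12.67 to 12.88). Within the slide holding 5 IL1B and 2 PBS arrays the difference was 0.64 with overlap, and with slide as a block its adjusted p was 0.708. That block left 0 of all probes called higher and 2 lower in this comparison.

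Cd163 was at 113.3, 165.2 and 171.9 after PBS and 197.1, 217.2 and 287.6 after IL1B at P10. These groups did not overlap (0.56, SE 0.12, adjusted p = 0.0274), but the ratio of medians, 1.32, was under the threshold, and with slide as a block the difference was 0.37 (adjusted p = 0.480). Ms4a7 was at 5017, 6125 and 8923 after PBS and 7786, 8261 and 9041 after IL1B (0.37, adjusted p = 0.107). Within the slide holding both groups Ms4a7 differed by 0.19 with overlap. Leaving out single arrays gave 0.29 to 0.46, with an adjusted p from 0.0132 to 0.216 and no call. For Pf4 the medians were 37830 and 38900, for Lyve1 4566 and 4352, for Mrc1 22760 and 23490, for F13a1 20300 and 22550 and for Cbr2 20780 and 16450. No member was called at P10 by limma or by the methods' equal-variance test, while 3 had an unadjusted p under 0.05. The background was 1.02% of probes called higher and 0.988% called lower.

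Whether the response to IL1B differed between the ages was tested as an interaction in the 24 CD11B+ arrays. Pf4 had a difference of responses, P10 minus P5, of 0.42 (SE 0.09, adjusted p = 0.00297), and F13a1 of 0.33 (SE 0.10, adjusted p = 0.0192), its dimmer probe giving -0.06. These 2 positive members compare with 10.4% of probes, and the negative count, 0 by limma, with 6.15%, while 3 members had an unadjusted p under 0.05 in either direction. Clec10a gave -0.26 (adjusted p = 0.694), so a difference between its responses at the 2 ages was not shown. In the same test the further genes of border-associated macrophages had 6 positive and 1 negative of 21 (median 0.18, beside 0.06 for the members), neutrophils and monocytes 11 negative of 15 (-2.09) and platelets and megakaryocytes 2 negative of 8 (-0.28). Erythroid genes were positive in 5 of 6 cases (1.69), meningeal fibroblast and mural cell genes in 3 of 8 (0.81), vascular endothelium in 3 of 8 (0.68) and microglia genes in 3 of 14, with 1 negative (0.16). The part of these lists was not tested. Both interaction calls were lost with slide as a block, where Pf4 gave 0.16 (adjusted p = 0.796) and F13a1 changed sign to -0.01, and under scaling to the 75th percentile, where they gave 0.26 and 0.27. The deposited matrix values also lost both calls, at 0.49 for Pf4 (adjusted p = 0.0609) and 0.50 for F13a1 (adjusted p = 0.0660), and so did a fit of all 8 groups, at unchanged estimates (adjusted p = 0.326 and 0.441).

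Some other lists also moved with IL1B on the P5 CD11B+ arrays, and their part in the values of the 8 genes was not tested. Neutrophil and monocyte genes were higher in 14 of 15 cases (median 3.44), the brightest being S100a9, with medians of 25110 after PBS and 207300 after IL1B. MHC class II genes were higher in 6 of 7 cases (1.79) and dendritic cell genes higher in 2 and lower in 1 of 7 (0.36), lists of interest beside Clec10a because dendritic cells also express it. Microglia genes were lower in 6 of 14 (-0.46), and genes of all macrophages higher in 1 of 12 (0.11). No platelet or megakaryocyte gene of 8 was called (-0.01), but in each of the 2 groups 4 of the 8 were well above background on no array. Vascular endothelium was lower in 6 of 8 genes (-0.93). At P10 MHC class II was higher in 5 of 7 genes (1.11), dendritic cells in 4 of 7 (0.73) and neutrophils and monocytes in 0 of 15 (0.96).

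Of the 21 further genes of border-associated macrophages, 3 were higher and 4 lower after IL1B in P5 CD11B+ cells, with a median of -0.07. Ccl8, a chemokine for monocytes, was at medians of 167.5 after PBS and 3218 after IL1B (4.23, SE 0.30, adjusted p = 2.38e-06), and Hpgd, which breaks down prostaglandins, at 5900 and 1096 (-2.56, SE 0.39, adjusted p = 0.000557). Clec4n (0.85) and Cd38 (0.70) were the other higher genes, and Ednrb (-0.88), Cd209g (-0.65) and Igfbp4 (-0.58) the other lower ones. Mgl2, the paralog of Clec10a, was at 14410 and 14490 (adjusted p = 0.311). Unlike Clec10a, its probe read higher in O4+ than in CD11B+ PBS cells. At P10 2 of the 21 were higher and 0 lower (median 0.19), Ccl8 at 207.3 and 2813 and Folr2 at 3869 and 6234.

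**Figure D4:**
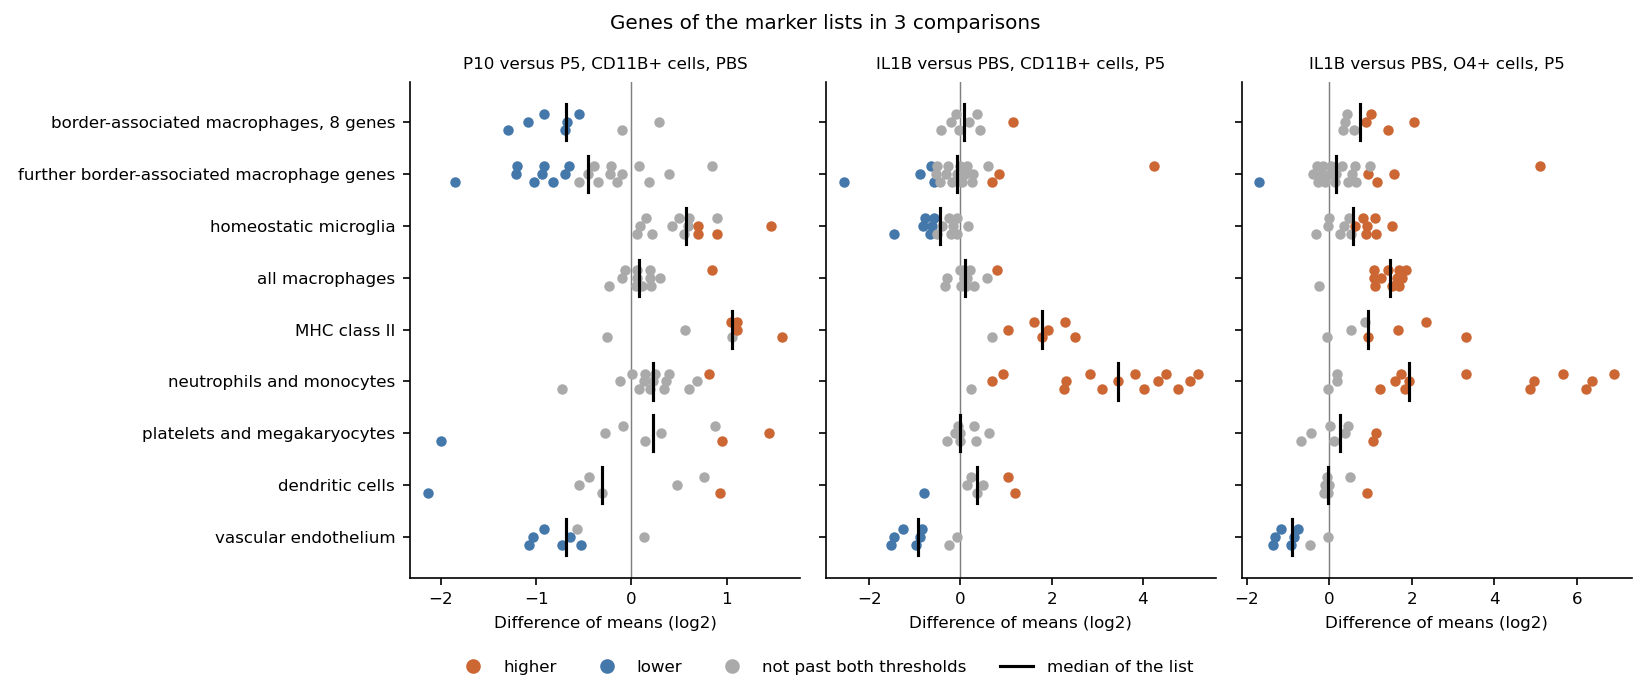
Log2 differences of single genes in 9 lists in 3 comparisons, P10 against P5 in PBS CD11B+ cells and IL1B against PBS at P5 in CD11B+ and in O4+ cells, coloured by call, with a bar at each list's median. The members' median is -0.69 in the comparison of ages, 0.07 after IL1B in CD11B+ cells and 0.75 after IL1B in O4+ cells.

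In the O4+ samples at P5, IL1B raised 4 of the 8 genes. Clec10a went from 119.4, 169.8 and 277.2 after PBS to 347.6, 623.3 and 2020 after IL1B, a ratio of medians of 3.67 (log2 difference 2.05, SE 0.38, adjusted p = 0.00303), and no arrays overlapped. Ms4a7 went from 311.4, 353.4 and 557 to 517.7, 1077 and 1618 (1.42, SE 0.26, adjusted p = 0.00314). Mrc1 went from 1972, 2280 and 3912 to 3084, 4694 and 6245 (0.90, SE 0.20, adjusted p = 0.00967). Cbr2 went from 486.3, 811.1 and 1227 to 1000, 1538 and 2800 (1.02, SE 0.28, adjusted p = 0.0241), its dimmer probe missing the adjusted p at 0.0684. In these last 3 genes the groups overlapped, although all 6 IL1B arrays lay above the PBS median. F13a1 was at 1071, 1308 and 2270 after PBS and 1237, 2198 and 3612 after IL1B (0.60, adjusted p = 0.167), and did not pass. Nor did Pf4, with medians of 3762 and 5719 (0.43), or Lyve1, with medians of 431.4 and 655.9 (0.38).

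The count of 4 higher compares with 3.49% of all probes, and the count of 0 lower, by limma and by the methods' equal-variance test alike, with 1.51%. By limma 5 members had an unadjusted p under 0.05, a cut for which no share of probes was counted. The highest of these 5, F13a1 at 0.0488, ranked only 16294 among the 55681 probes. The median of the 8 genes was 0.75, beside -0.04 for all probes. Macrophage markers rose on the same arrays: 11 of 12 genes of all macrophages were higher, with a median of 1.48, and 7 of 14 microglia genes, with a median of 0.58. Neutrophil and monocyte genes were higher in 12 of 15 cases (1.94), MHC class II in 4 of 7 (0.94), haem handling in 4 of 11 (0.29) and alternative activation in 4 of 12 (0.38), while 6 of 8 vascular endothelium genes were lower (-0.89) and 0 of 10 oligodendrocyte lineage genes were called (-0.30). Of the 21 further genes of border-associated macrophages 4 were higher and 1 lower (0.18). The part of these cells in the members' values was not tested. The plot of marker lists shows the single genes behind these medians.

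Slides again divided the groups, since 4 of the 6 IL1B arrays lay on a slide with no PBS O4+ array. On the slide with 1 IL1B and 4 PBS arrays the 7 detected genes differed by 0.17 (Lyve1) to 1.36 (Ms4a7), and on that with 1 and 2 by 0.66 (Lyve1) to 2.03 (Ms4a7). All 7 were higher in both, although on the first slide only Clec10a, Ms4a7 and Mrc1 lay outside the PBS arrays. With slide as a block Ms4a7 kept its call (1.67, adjusted p = 0.0278). The others lost theirs, at 1.41 for Clec10a (adjusted p = 0.136), 1.04 for Mrc1 (adjusted p = 0.0757) and 0.81 for Cbr2 (adjusted p = 0.300). Cbr2 also lost its call without P5 PBS O4+ replicate 2 (0.95, adjusted p = 0.0502) and with scan day as the block (0.85, adjusted p = 0.109).

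At P10 Clec10a was the gene called in O4+ cells. It was at 168.5, 199.4 and 272.1 after PBS and 216.5, 437.6 and 540.6 after IL1B, a ratio of 2.20 (1.01, SE 0.21, adjusted p = 0.0113), and 1 IL1B array fell within the PBS range. With slide as a block it stayed called (1.12, adjusted p = 0.0366). This 1 higher gene compares with 2.61% of probes, and the 0 lower by either test with 1.51%. By limma 2 members had an unadjusted p under 0.05, a cut for which no share of probes was counted. Of these 2, Cbr2 at 0.0179 ranked only 9380 among the 55681 probes. Cbr2 was at 977.8, 2134 and 2906 after PBS and 496.6, 1133 and 1513 after IL1B (-0.95, adjusted p = 0.106). Ms4a7 had medians of 481.7 and 446.2, Mrc1 of 1368 and 1495, Lyve1 of 312.3 and 253.3, Pf4 of 3147 and 2988 and F13a1 of 1383 and 1331. Genes of all macrophages were higher in 6 of 12 cases (0.63), neutrophil and monocyte genes in 7 of 15 (1.11), MHC class II in 3 of 7 (0.56) and astrocyte genes in 3 of 6 (0.58), and their part was not tested.

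The O4+ response was tested for a difference between the ages. Cbr2 (-1.97, SE 0.45, adjusted p = 0.00507), Ms4a7 (-1.43, SE 0.33, adjusted p = 0.00477) and Mrc1 (-0.89, SE 0.27, adjusted p = 0.0300) gave differences, P10 minus P5, below 0. For Cbr2 the response was 1.02 at P5 and -0.95 at P10, the latter not called, so its sign also differed between the ages. The estimates of the 7 genes detected in O4+ cells were all negative. The 3 negative members compare with 5.48% of probes and the 0 positive ones with 7.97%, 5 members having an unadjusted p under 0.05. For Clec10a the difference was -1.04 with an adjusted p of 0.134. It shrank to as little as -0.28 under the other alternatives, and to -0.73 when single arrays were left out. In the same test the further genes of border-associated macrophages had 3 negative and 1 positive of 21 (median -0.15, beside -0.84 for the members). Negative differences were called for 8 of 12 genes of all macrophages (-0.82), 3 of 14 microglia genes (-0.38), 7 of 15 neutrophil and monocyte genes (-1.98) and 6 of 11 haem handling genes, with 1 positive (-0.42). Vascular endothelium had 3 positive of 8 (0.93) and the oligodendrocyte lineage 4 positive of 10 (0.36), and the part of these lists was not tested. With slide as a block Ms4a7 kept its call (-1.57, adjusted p = 0.0438), while Cbr2 (-1.81, adjusted p = 0.098) and Mrc1 (-0.99, adjusted p = 0.140) did not. The Mrc1 call was also lost without any of P5 PBS O4+ replicates 1 and 3, P5 IL1B O4+ replicates 1 and 4, and P10 IL1B O4+ replicates 2 and 4, with estimates from -0.84 to -0.78, and in the deposited matrix values (-0.77, adjusted p = 0.0507).

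The response was also compared between the cell types. At P5 the O4+ minus CD11B+ difference was 1.05 for Ms4a7 (SE 0.28, adjusted p = 0.0164) and 1.00 for Mrc1 (SE 0.22, adjusted p = 0.00299), so 2 members were positive where 6.93% of probes were. The negative count was 0 by limma, where 3.78% of probes were, and 5 members had an unadjusted p under 0.05. Clec10a, called in both cell types, gave 0.90 (adjusted p = 0.255). Over the alternatives other than leaving out an array its difference ran from -0.07 to 0.90, so its sign was not stable. In the same test 11 of 12 genes of all macrophages and 13 of 14 microglia genes were positive, with medians of 1.43 and 1.17, beside 0.85 for the members. The further genes of border-associated macrophages had 4 positive of 21 (0.42), MHC class II 1 positive and 2 negative of 7 (-0.73) and alternative activation 2 positive and 4 negative of 12 (-0.19), and the part of these lists was not tested. With slide as a block Ms4a7 gave 1.38 (adjusted p = 0.159) and Mrc1 1.12 (adjusted p = 0.138). Ms4a7 also lost its call in the deposited matrix values (0.97, adjusted p = 0.0577). Without P5 PBS O4+ replicate 5 or P5 IL1B O4+ replicate 6 the positive count rose to 4, with F13a1 and Pf4. At P10 no member was called in either direction, with 0 unadjusted p under 0.05 and a background of 3.92% positive and 3.65% negative.

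The 8 genes also varied from array to array within their groups. After each group's mean was removed, the 28 pairs of members correlated with a median r of 0.722 over the 24 O4+ arrays, from 0.465 to 0.973. Over the 24 CD11B+ arrays the median was 0.341, from -0.172 to 0.657, with 25 of 28 pairs positive. The mean of the members followed the mean of the 21 further genes of border-associated macrophages within groups, with r = 0.901 in O4+ cells (rho 0.884) and r = 0.752 in CD11B+ cells (rho 0.613). The same mean had r = 0.356 with the microglia genes in O4+ cells (rho 0.345) and -0.272 in CD11B+ cells (rho -0.190). With the genes of all macrophages it had 0.421 in O4+ (rho 0.454) and -0.0221 in CD11B+ cells (rho 0.0591). Other lists came closer in CD11B+ cells, with r = 0.62 for neutrophils and monocytes (rho 0.523) and for MHC class II (rho 0.338), 0.565 for haem handling (rho 0.586) and 0.516 for alternative activation (rho 0.390). In O4+ cells alternative activation had r = 0.510 (rho 0.490). These are descriptions, since arrays of a group share slides and scan days.

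The genes whose signals were most like each member over the 24 CD11B+ arrays differed between members. Among 13796 gene symbols detected on all 24, Lyve1 was nearest to Dab2 (r = 0.975), Mrc1 to the chemokine gene Ccl7 (0.961), Pf4 to Cxcl1 (0.955) and F13a1 to Sh3bgrl2 (0.951). Cd163 was nearest to the cation channel gene Trpv4 (0.953), and Ms4a7 to Aoah (0.952), an enzyme that inactivates lipopolysaccharide. Clec10a stood by Gbp11 (0.912), Gbp9 (0.912) and Nlrc5 (0.907), genes known to be induced by interferon. Cbr2 had no close neighbour, 1110031I02Rik being the nearest at 0.644. For the average of the 8 genes the 10 nearest ran from Dnase1l1 (0.943), Med29 (0.941) and Gm6377 (0.939) through Tmem167, AI607873, Cxcl2, Gabarap, Sar1a and Cstb to Plin2 (0.926). These correlations include the differences between the 4 groups.

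Several limits apply to these values. CD11B is carried by microglia, border-associated macrophages, monocytes and neutrophils alike, and no array holds border-associated macrophages alone. Pf4, Lyve1 and Clec10a are also made by other cells, whose markers moved in some comparisons. That the other members are made by border-associated macrophages alone was not shown. IL1B and PBS arrays were spread unevenly over slides, and P5 and P10 arrays shared none. By the paper O4+ and CD11B+ cells came from the same brains, but the labels do not say which samples pair, so comparisons of cell types were fitted unpaired. Same-numbered O4+ and CD11B+ arrays of P10 IL1B pups did correlate (0.265 to 0.713), and fits with the numbers as a block are given below. Of such pairs, 5 of 6 in PBS pups at each age and 2 of 6 in P5 IL1B pups correlated over 0.1. Signals of O4+ samples were low for Cd163. The labels and the paper name different strains and different times between the last injection and collection at P5. Labels of the P10 samples repeat the P5 text, and the age was taken from their names.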

How the data were processed

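The 48 scanner files hold probe intensities that, as deposited, were background-subtracted and detrended by Agilent Feature Extraction 10.7.3.1, with probe positions on mm9. The deposited matrix holds, per the values, the ratio of each spot to its array's median, the scaling being the authors' own, and was used as an alternative only. Spots of a probe were averaged after quantile normalization of log2 intensities over all 48 arrays. A gene's members were the non-control probes bearing its name in these files, the brightest standing for the gene. Groups were compared in R 4.3.3 with limma 3.58.1 on all 55681 probes, with p adjusted by Benjamini and Hochberg's method, 1 fit per comparison. Interactions were called at adjusted p under 0.05 with no fold threshold. The methods' equal-variance test was also run on group comparisons. Members with an unadjusted p under 0.05 were counted without the share of all probes under that cut. The shares of called probes printed near those counts belong to the stricter calls and are no background for them. Members and lists were chosen with earlier results of these data known, and Wfdc17, Ly6c2 and Ccl21a had no probe. Scripts were tested on simulated data. Of all spots, 278 were nonuniform and 0 saturated, none of them a member's.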

Additional observations from a re-analysis of the deposited data

Results flagged for a closer look

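In 6 of 64 sets of 6 arrays (8 genes in 8 groups), 1 array lay far from the other 5, where chance gives about 1 in 20 sets. Cd163 was lowest at 3.03 in P5 PBS O4+ replicate 2 (nearest 12.4), a spot not well above background, and at 269.2 in P5 IL1B CD11B+ replicate 3 (nearest 453.3). Clec10a was lowest at 216.5 in P10 IL1B O4+ replicate 4 (nearest 412.4). F13a1 was highest at 30700 in P5 IL1B CD11B+ replicate 4 (nearest 28360). Mrc1 was lowest at 982 in P10 PBS O4+ replicate 1 (nearest 1345) and at 19270 in P10 PBS CD11B+ replicate 2 (nearest 22060). No array appeared more than once.

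The response to IL1B differed between groups, by an interaction test, in 7 cases, of which 1, Ms4a7 between the ages in O4+ cells, stayed called with slide as a block. Between P10 and P5 in CD11B+ cells these were F13a1 (0.33) and Pf4 (0.42), where 10.4% of all probes were positive. Between P10 and P5 in O4+ cells they were Cbr2 (-1.97), Ms4a7 (-1.43) and Mrc1 (-0.89), where 5.48% were negative. Between O4+ and CD11B+ cells at P5 they were Mrc1 (1.00) and Ms4a7 (1.05), where 6.93% were positive. What lay behind these differences was not tested.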

How the results depend on the processing

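The 8 genes stayed lower in O4+ than in CD11B+ cells at both ages under every alternative, and 5 or 6 of them stayed called lower with age in CD11B+ cells. Over the alternatives other than leaving out an array, 1168 of 1212 gene differences kept their side of the threshold, 28 lost it, 15 gained it and 1 reversed. When single arrays were left out, 1517 of 1536 kept it, 10 lost it and 9 gained it. The sign of the difference, called or not, was kept in 1178 of the 1212 and in 1497 of the 1536. For the counts that moved, given next, the cause was not tested.

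For IL1B at P5 in CD11B+ cells, 1 higher and 0 lower became 2 and 2 with no fold threshold, and 0 higher with slide as a block. At P10 in CD11B+ cells 0 higher became 1, Clec10a, with normexp background correction, with only probes well above background and with all 8 groups in 1 fit, and 1, Cd163, with no fold threshold. Leaving out arrays there gave 0 to 1, with 1 only without P10 PBS CD11B+ replicate 6. In O4+ cells at P5, 4 higher became 1 with the slide block, and at P10 0 lower became 1, Cbr2, both under 75th percentile scaling and when all 8 groups shared 1 fit. For age in O4+ cells, 1 lower became 0 with 75th percentile scaling and with the deposited matrix values, and 1 to 3 when arrays were left out (2 without P5 PBS O4+ replicate 1, 3 without replicate 2). The 1 higher became 0 with slide and with scan date as the block.

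For the interaction of IL1B with age in CD11B+ cells, 2 positive became 0 with 75th percentile scaling, with matrix values, with all 8 groups in 1 fit and with the slide block, where F13a1 reversed to -0.0135. They became 1 with the scan date block and with the mean of a gene's probes. In O4+ cells 3 negative became 1 with the slide block. For O4+ minus CD11B+ cells at P5, 2 positive became 1 with matrix values and 0 with the slide block, and 2 to 4 when arrays were left out (4 without P5 PBS O4+ replicate 5 or P5 IL1B O4+ replicate 6). At P10 0 negative became 1, the dim Cd163, with normexp.

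The median of all probes moved by over 0.1 log2 under some scalings. With the 75th percentile it was 0.11 for IL1B in P5 CD11B+, -0.19 in P10 O4+, 0.21 for age in O4+ and -0.34 for O4+ against CD11B+ cells at P5. Among interactions it was -0.09 for age in CD11B+ (main 0.01), -0.11 for age in O4+, -0.14 for cell type at P5 and -0.18 at P10. With matrix values it was -0.17 for IL1B in O4+ cells at both ages, 0.22 for age in O4+, -0.45 and -0.16 for cell type at P5 and P10, 0.14 for the CD11B+ interaction and -0.22 for that of cell type at P10. Quantiles over a cell type gave 0.15 for cell type at P10 and 0.06 at P5 (main -0.05). Lists were counted under quantile normalization alone.

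The higher share of called probes also moved. For IL1B in P5 CD11B+ cells 2217 higher and 2792 lower became 2835 and 2362 (75th percentile) or 1426 and 1170 (normexp), and 1270 and 877 with slide as a block. In P10 CD11B+ cells 570 and 550 became 706 and 384 (matrix), and 0 and 2 with slide as a block, which left almost no probe called. In P5 O4+ cells 1946 and 842 became 1110 and 262 (normexp) or 1829 and 1305 (matrix), and in P10 O4+ cells 1456 and 839 became 1535 and 2068 (75th percentile) or 1677 and 1576 (matrix). For cell type at P5 11021 and 12157 became 9591 and 18214 (matrix). The interactions went from 5804 and 3427 to 6539 and 1375 in CD11B+ (matrix), from 4440 and 3052 to 2888 and 4923 in O4+ (75th percentile), and from 2181 and 2030 to 2042 and 8580 (75th percentile) or 1409 and 8091 (matrix) for cell type at P10.

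As replicate block, the arrays' numbers changed 1 count of members, 4 to 3 for IL1B in P5 O4+ cells (Cbr2, adjusted p = 0.0575), and no member count by over 1.5 times. Of all probes, 570 higher and 550 lower became 301 and 355 for IL1B in P10 CD11B+ cells. In the interaction of cell type at P10, 2181 positive and 2030 negative became 3102 and 3085. In no comparison of 2 groups did all 6 same-numbered pairs correlate over 0.1. Between O4+ and CD11B+ cells of P10 IL1B pups, which enter the interaction of cell type at P10, all 6 did (0.265 to 0.713), each array best with its own number. Between O4+ and CD11B+ PBS cells 5 of 6 pairs were over 0.1 at each age, 4 being best with their own number. For IL1B in P5 O4+ cells and for age in PBS CD11B+ cells 5 of 6 were too, with 2 best. Cd163 in O4+ cells, near background, is the gene whose values signal depth limits most.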

Other observations

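Genes that handle haemoglobin and haem, the load that Cd163 takes up, were called higher in 2 and lower in 1 of 11 cases in CD11B+ cells after IL1B at P5, with a median of 0.06. Hp, the haptoglobin gene, was at medians of 1261 after PBS and 18140 after IL1B (log2 difference 3.64), and Slc11a1, a phagosomal iron transporter, at 7113 and 12510 (0.80). Slc40a1, the iron exporter ferroportin, was lower, at 10810 and 6129 (-0.75), and the haem oxygenase gene Hmox1 was at 27680 and 30510. None of 11 such genes was called at P10.

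Of 12 genes of alternative activation, 5 were higher and 1 lower after IL1B in P5 CD11B+ cells, with a median of 0.50. Chil3, a chitinase-like protein that neutrophils also make, was at medians of 226 and 3843, and the chemokine gene Ccl17 at 33.33 and 349.5. Il4ra was at 670.3 and 2213, Retnla at 49.44 and 289.9, and Egr2, the lower one, at 8973 and 5699. At P10 0 of the 12 were called.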
